A study of Mus musculus with 2 samples.

Results

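The fibrous callus spots were the 300 positions, of 6380 under tissue, that were richest in transcripts of periostin (Postn) and type III collagen (Col3a1) outside cartilage and bone. They came from Visium sections of fixed tibial callus, in which probe pairs are counted as unique molecular identifiers (UMIs) on a grid of barcoded spots that are each wide enough to hold several cells. In the control and in the mutant callus, spots with at least 1000 UMIs, less than 10000 counts per 1000000 UMIs (CPM) of the cartilage collagen Col2a1 and less than 1000 CPM of the bone matrix gene Bglap were ranked by summed Postn and Col3a1 CPM, and the first 150 of each genotype were taken over both sections. The spots were thus chosen by measured levels of these 4 genes, which support nothing below. There were 2751 such eligible spots, 960 in the control and 1791 in the mutant callus, so the fibrous spots were 15.6% of the former and 8.38% of the latter. The control callus gave 67 fibrous spots in section 1 and 83 in section 2, and the mutant callus gave 85 and 65.

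The control mouse carried 1 floxed and 1 wild-type allele of Nf1 and no Cre (Nf1 +/flox). The mutant, called Nf1Postn below, was a female littermate of the female control and carried Postn-cre with 1 floxed and 1 null Nf1 allele (Nf1 flox/-), so that Cre is driven by the periostin promoter, and cells without Cre keep 1 functional allele against 2 in the control. Both were 8 weeks old at the fracture of the distal tibia, which was held by an intramedullary pin, and the calluses were taken 10 days later, fixed in formalin and decalcified in 14% EDTA. The sample titles call the 2 sections biological replicates, whereas the design text and the methods describe sections of a block in which a control and a mutant callus were embedded together. They were therefore taken as 2 sections of 1 mouse per genotype, which leaves no test between genotypes, and the sources used here give no animal number that would settle this. Values are therefore given per section, as UMIs summed over the fibrous spots and divided by all UMIs of those spots (pooled CPM), with exact 95% intervals that cover counting error alone. The fibrous spots held 1409330 UMIs in the control and 790846 in Nf1Postn. The median depth per spot was 8644 and 9409 UMIs in the control (section 1, section 2) and 3903 and 6966 in Nf1Postn.

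Fibrous tissue forms in a fracture callus from activated periosteal and other mesenchymal cells, which secrete fibrillar collagens, fibronectin, tenascins and periostin before cartilage and bone replace it. Neurofibromin, the product of Nf1, is a GTPase-activating protein that turns Ras off, and its loss raises signaling through the kinases MEK and ERK. In people with neurofibromatosis type 1, tibial fractures may fail to unite and then hold persistent fibrous tissue, which is why fibrous spots of control and Nf1Postn callus were set side by side.

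The 4 genes that chose the spots are given as a description. Postn was counted at 2698 and 3026 CPM in the control sections and 1991 and 1512 CPM in the Nf1Postn sections. Col3a1 stood at 17889.6 and 16422 CPM against 16440.5 and 16177 CPM, so that its level in the chosen spots was nearly alike and it made up 85.6% of the summed CPM in the control and 90.1% in Nf1Postn. The control spots thus owed more of their rank to Postn, and 2 of the 150 Nf1Postn spots held no Postn UMI. Below their limits, Col2a1 still reached 2804 and 4389 CPM in the control and 2008 and 1270.5 CPM in Nf1Postn, and Bglap 269 and 327 CPM and 270.2 and 205 CPM. The last control spot taken had a summed level of 14373 CPM and the first left out 14296 CPM. In Nf1Postn these were 14125 and 14112 CPM, so neither edge marks a gap between fibrous and other tissue.

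Other genes of activated fibroblasts matched the label fibrous callus in part. Cthrc1 was at 1064 CPM in the control fibrous spots and 495 CPM in the other eligible control spots, and at 368 and 191 CPM in Nf1Postn. Lrrc15 was at 304 and 80.6 CPM in the control and 110 and 37.8 CPM in Nf1Postn. Both genes were thus richer in the fibrous spots of either genotype, but the contractile genes were not in the control, where Acta2 was at 210 CPM in fibrous and 267 CPM in other eligible spots and Tagln at 194 and 225 CPM. In Nf1Postn, Tnn was at 86 CPM in fibrous and 106 CPM in other eligible spots, and the 150 spots ranked next held 438 CPM of Cthrc1 and 110.4 CPM of Lrrc15, no less than the fibrous spots themselves.

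The spots lay in bands rather than scattered. Counted over each pair of a fibrous spot and an adjacent eligible spot, the adjacent spot was itself fibrous in 66.2% and 61.1% of pairs in the control sections and in 67.2% and 51.1% in the Nf1Postn sections, where fibrous spots were 14.9%, 16.2%, 12.1% and 5.99% of the eligible ones. The control spots formed 9 patches in section 1 and 20 in section 2, with largest patches of 36 and 21 spots. Those of Nf1Postn formed 14 and 15 patches, the largest of 46 and 35 spots. The neighbors of these bands differed between the calluses. The median distance from a control fibrous spot to the nearest spot with at least 10000 CPM of Col2a1 was 264.6 μm in section 1 and 200 μm in section 2, and from an Nf1Postn fibrous spot it was 519.6 and 556.8 μm. For the other eligible control spots this distance was 264.6 μm in both sections, so that in section 1 the control fibrous spots lay no closer to cartilage than those. For the other eligible Nf1Postn spots it was 894.4 and 1352.8 μm, farther than for the fibrous ones. Spots this rich in Col2a1 numbered 820 and 726 in the control but 33 and 103 in Nf1Postn, so these distances are not on equal terms between the calluses. The median distance to the nearest spot with at least 1000 CPM of Bglap was 264.6 and 300 μm from control and 100 and 200 μm from Nf1Postn fibrous spots. Spots with at least 100000 CPM of muscle genes lay 2042 and 1300 μm away in the control, but 529 and 200 μm away in Nf1Postn. For the other eligible spots this distance was 1860 and 836 μm in the control and 0 μm in both Nf1Postn sections.

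**Figure D1:**
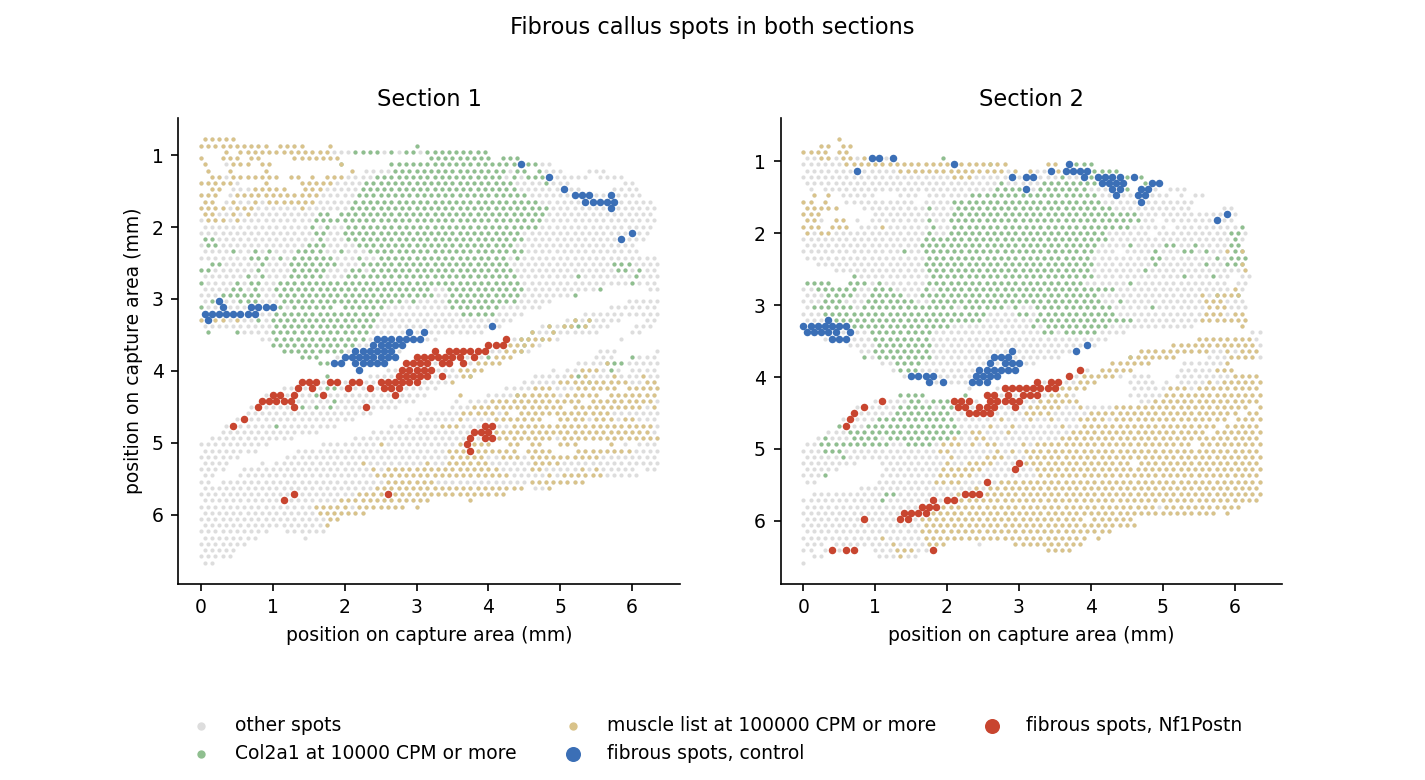
Position of the 150 control (blue) and 150 Nf1Postn (red) fibrous spots on the capture area of each section, in mm on both axes, over all other spots (grey), spots with at least 10000 CPM of Col2a1 (green) and spots with at least 100000 CPM of the mature muscle list (sand). The control spots lie in the upper callus, and the Nf1Postn spots run along the edge of the lower callus, where 442 spots of section 1 and 904 of section 2 are rich in muscle.

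Mature muscle was the other tissue with the largest difference in summed CPM between the genotypes. The summed level of 12 mature muscle genes was 9819 and 19256 CPM in the control sections and 24437 and 44639 CPM in the Nf1Postn sections. All 11 genes of this list that could be compared were higher in Nf1Postn in both sections, by a median of 1.14 on the log2 scale, and the myosin chain Myh1 went from 799 and 2410.3 to 2292 and 5262 CPM. Globin transcripts of red cells, among them Hbb-bs at 83.9 and 64.6 CPM in the control and 304 and 162 CPM in Nf1Postn, were likewise higher. Summed over the muscle, regenerating muscle and erythroid lists, the median control spot held 7912 and 12299 CPM and the median Nf1Postn spot 21021 and 33197 CPM, and at least 10000 CPM was reached in 22 and 57 control and in 77 and 64 Nf1Postn spots. The ranges overlapped, from 3120 to 116266 CPM in the control and from 3669 to 130102 CPM in Nf1Postn. In spots, fewer cells of a type and less RNA per cell cannot be told apart.

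Genes were compared between genotypes where both together had at least 50 UMIs in each section, and a gene was called higher or lower where its CPM differed at least 2-fold the same way in both sections. Of 4159 genes, 47 (1.13%) were higher in Nf1Postn fibrous spots and 22 (0.529%) lower, with the median gene at 0.026 on the log2 scale. Genes named below that were not called, and called genes given without values, were chosen after their values were seen. None of the 22 lower genes had more CPM in 1598 muscle-rich spots outside the fibrous set than in the control fibrous spots. Most muscle-rich spots lay in the Nf1Postn callus, with 442 and 904 per section against 141 and 120 in the control, fibrous ones included. A gene lower throughout the Nf1Postn callus would thus pass as well, so this does not settle whether the 22 are genes of muscle. Of the 47 higher genes, 30 had more CPM in the muscle-rich spots than in the Nf1Postn fibrous spots, among them the kinase Ckm, the troponins Tnnt3 and Tnnc2, the myosin kinase Mylk2 and the sarcomeric proteins Myoz1, Hrc and Hspb6. The other 17 were Aatk, Cadm4, Cilp, Cldn1, Cygb, Dlk1, Gatm, Gli1, Gpc3, Heyl, Hspa12a, Itih5, Metrn, Micall2, Nes, Plekha4 and Stard13.

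**Figure D2:**
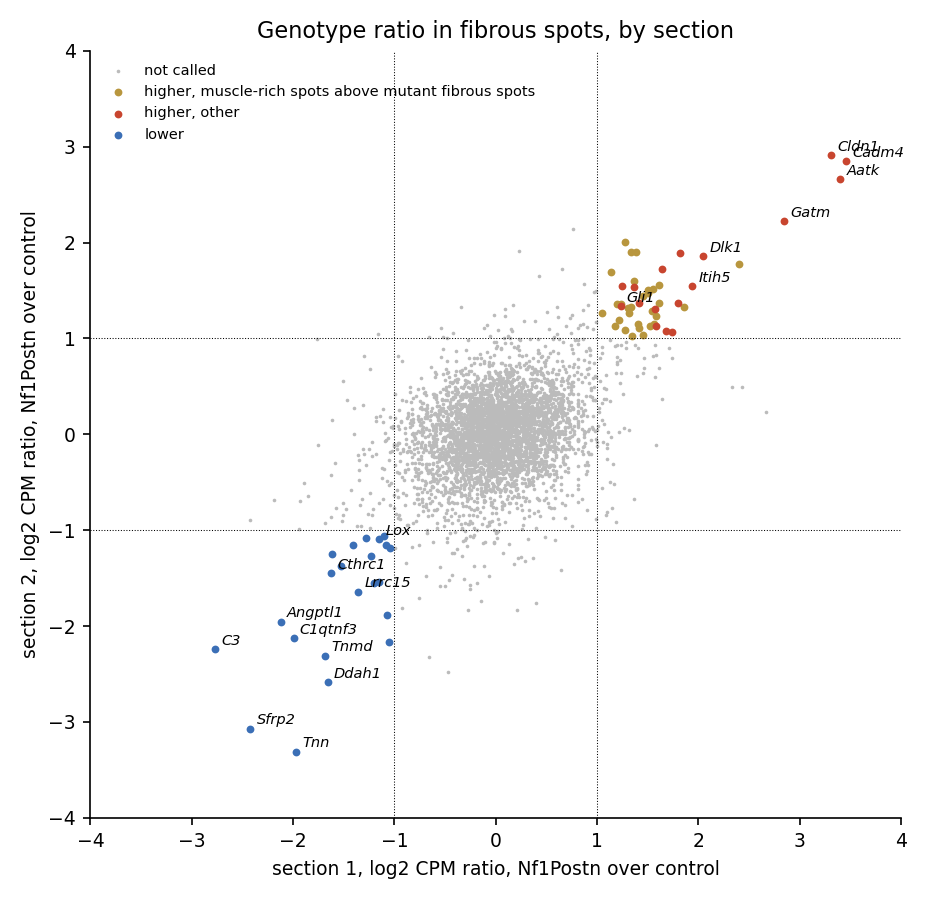
Log2 CPM ratio of Nf1Postn over control fibrous spots in section 1 (x axis) and section 2 (y axis) for the genes compared, with dotted lines at 2-fold. Blue points are the 22 lower genes, red points the 17 higher genes that are not above the fibrous level in muscle-rich spots, and sand points the other 30 higher genes. Sfrp2 and Tnn lie farthest toward the lower left, and Cldn1, Cadm4 and Aatk farthest toward the upper right.

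The largest difference downward was that of Sfrp2, a secreted frizzled-related protein that binds WNT ligands (chromosome 3, 83673628 to 83681624 in mm39). It was counted at 1312 and 1280.5 CPM in the control sections and at 245 and 153 CPM in the Nf1Postn sections, 6.69-fold lower over both (log2 ratio -2.74, 95% interval -2.99 to -2.50). Neither Nf1Postn section came near either control section. With every spot drawn down to 1000 UMIs to make depths equal, 61.3% of control spots (53% to 69.2%) and 12.7% of Nf1Postn spots (7.8% to 19.1%) still held an Sfrp2 UMI, against 9.01% of the muscle-rich spots, whose median depth before this draw was 3070.2 UMIs. Before the draw the shares were 98% and 46%. Of the other 3 secreted WNT antagonists compared, none was called. Sfrp1 went from 216 and 290 to 185 and 162 CPM and Dkk3 from 409.8 and 466 to 233 and 246 CPM, whereas Sfrp4 was at 85.5 and 128 and 142 and 125 CPM, overlapping between genotypes. The WNT target genes of the list, such as Axin2 and Lef1, had too few UMIs to be compared.

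Next in size among the lower genes was Tnn, which encodes tenascin-W, an adhesive glycoprotein of periosteum and forming bone. It was at 502 and 519 CPM in the control and 128 and 52.4 CPM in Nf1Postn, 5.95-fold lower (-2.57, -2.95 to -2.21). The same held for Cthrc1, a secreted protein of activated fibroblasts at sites of repair, which was at 1202 and 956 CPM in the control and 389.6 and 351 CPM in Nf1Postn (-1.53, -1.72 to -1.35). C1qtnf3, a secreted protein of the C1q and TNF family made by cartilage and connective tissue, stood at 975 and 1154 CPM in the control sections against 245 and 264 CPM, and Angptl1, an angiopoietin-like secreted protein, at 557 and 864 CPM against 128 and 223 CPM. Their log2 ratios were -2.07 (-2.29 to -1.86) and -2.01 (-2.27 to -1.76).

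Immune genes were represented among the lower genes by complement component C3, at 116 and 204 CPM in the control and 17.1 and 43.3 CPM in Nf1Postn (-2.39, -3.04 to -1.79), and by the monocyte-attracting chemokine Ccl8, at 218 and 238 and 71.1 and 100.2 CPM (-1.39, -1.79 to -1.01). Ccl8 was the only 1 of 4 cytokines and chemokines compared that was called, and the median of the 4 was -0.41. None of 8 macrophage genes was called, and their median was -0.14. The macrophage complement gene C1qa, for example, was at 600.2 and 557 CPM in the control and 518 and 603 CPM in Nf1Postn, and the summed macrophage level of 1749 and 1853 CPM overlapped with the 1473 and 1812 CPM of Nf1Postn. Further lower genes were Ddah1, which breaks down methylated arginines (80.7 and 109 against 25.6 and 18.2 CPM), Rgs4, a regulator of G-protein signaling (98.4 and 88.7 against 34.1 and 34.2 CPM), and the retinol carrier Rbp4 (106 and 165 against 45.5 and 68.3 CPM). The remaining lower genes were Arl4c, Cd276, Cers6, Hmox1, Ptn, Rpp21 and Sgms2, and the others are described with their groups.

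**Figure D3:**
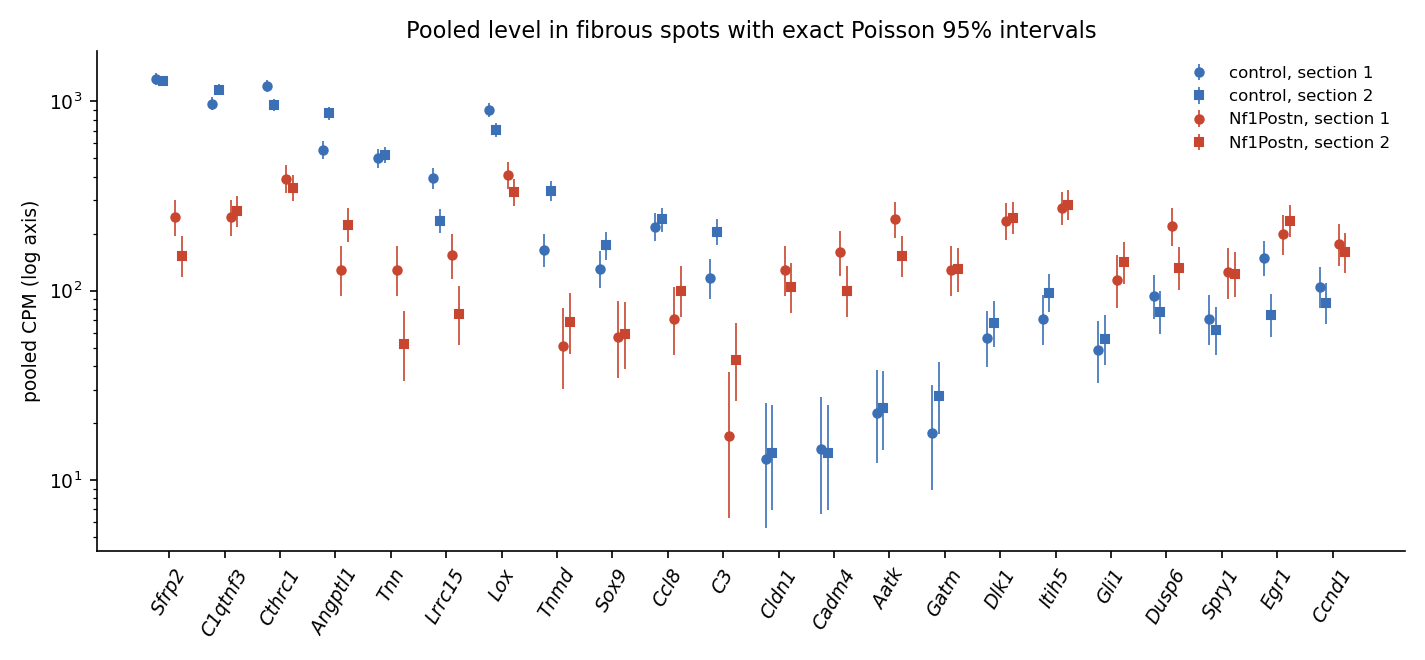
Pooled CPM (log axis) of 22 genes in the fibrous spots, with exact Poisson 95% intervals, for control (blue) and Nf1Postn (red) in section 1 (circles) and section 2 (squares). From Sfrp2 to C3 both control sections lie above both Nf1Postn sections, and from Cldn1 to Ccnd1 both lie below.

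The matrix of the fibrous spots was lower in Nf1Postn by small steps in many genes. None of 14 fibrillar and associated collagens was called, but 9 were lower in both sections and 1 higher, and the median log2 ratio was -0.41 (-0.28 in section 1 and -0.49 in section 2). Over all genes compared, 27.3% were lower and 31.5% higher in both sections at any size. Col1a1, the main chain of type I collagen, went from 33683 and 35268 CPM in the control to 27091 and 24086 CPM in Nf1Postn, and Col5a1, a chain of the type V collagen that starts fibrils, from 6075 and 5195 to 3882 and 3158 CPM. The exception was Col15a1, a basement membrane collagen, at 269 and 243 CPM in the control and 572 and 314 CPM in Nf1Postn. With the spots that held at least 10000 CPM of muscle and erythroid genes left out, the collagen median was 0.043. This kept 71 control and 9 Nf1Postn spots, and of these 9 only 1 lay in section 2.

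Among 20 matricellular and adhesive glycoproteins, 16 were lower in both sections and 2 higher, with Tnn and Cthrc1 called and a median of -0.61 (-0.70 in section 1 and -0.54 in section 2). The median was -0.17 over the 71 control and 9 Nf1Postn spots poor in muscle and -0.37 in 64 pairs of spots matched on their muscle level. Fibronectin (Fn1), the early scaffold of repair tissue, was at 6454 and 5421 CPM in the control and 3834 and 3672 CPM in Nf1Postn, and tenascin-C (Tnc) at 1325 and 819 and 802 and 503 CPM. Thrombospondin 2 (Thbs2) was at 2959 and 2909 CPM against 1601 and 1149.8 CPM. Elastin (Eln) and fibulin 5 (Fbln5) ran the other way, with Eln at 589 and 1046 CPM in the control and 1194 and 1227 CPM in Nf1Postn. The microfibril protein Mfap5 was split between the sections, at 390 and 298 CPM in the control and 381 and 421 CPM in Nf1Postn. The small leucine-rich proteoglycans, which bind and space collagen fibrils, had no call among 9 genes, of which 8 were lower in both sections, and a median of -0.76 (-0.48 in section 1 and -0.89 in section 2). Osteoglycin (Ogn) went from 544 and 589 to 216 and 303 CPM and biglycan (Bgn) from 2106 and 2546 to 1689 and 1175 CPM, but decorin (Dcn), the proteoglycan typical of mature connective tissue, was at 721 and 823 CPM in the control and 663 and 922 CPM in Nf1Postn.

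Of 18 enzymes and chaperones that make, trim and cross-link collagen, 12 were lower and 1 higher in both sections, with a median of -0.29. Both called genes act directly on collagen chains. Lysyl oxidase (Lox), which cross-links collagen and elastin, was at 902 and 708 CPM in the control and 407 and 332 CPM in Nf1Postn (-1.12, -1.31 to -0.93), and the prolyl hydroxylase subunit P4ha3 at 100 and 123 and 48.3 and 27.3 CPM (-1.62, -2.25 to -1.04). The related oxidase Loxl2 went from 629 and 376 to 196 and 198 CPM, while Loxl1 was at 611 and 419 and 540.3 and 528 CPM.

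Transforming growth factor β (TGF-β) ligands, latency proteins and targets had 1 call among 14 genes. This was Lrrc15, a membrane protein of activated fibroblasts that responds to TGF-β, at 394 and 234 CPM in the control and 154 and 75.1 CPM in Nf1Postn (-1.47, -1.82 to -1.13). Its ratio was 0.21 over the 71 control and 9 Nf1Postn spots poor in muscle, of which only 1 Nf1Postn spot lay in section 2. The median of the list was -0.20, and the ligand Tgfb1 was at 308 and 265 CPM in the control and 327 and 271 CPM in Nf1Postn. The contractile list, which marks myofibroblasts, had no call among 10 genes and a median of -0.25. Smooth muscle actin (Acta2) stood at 271 and 162 CPM in the control against 148 and 84.2 CPM in Nf1Postn, but the tropomyosins Tpm1 and Tpm2 and desmin (Des), which skeletal muscle shares, were higher in both Nf1Postn sections.

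**Figure D4:**
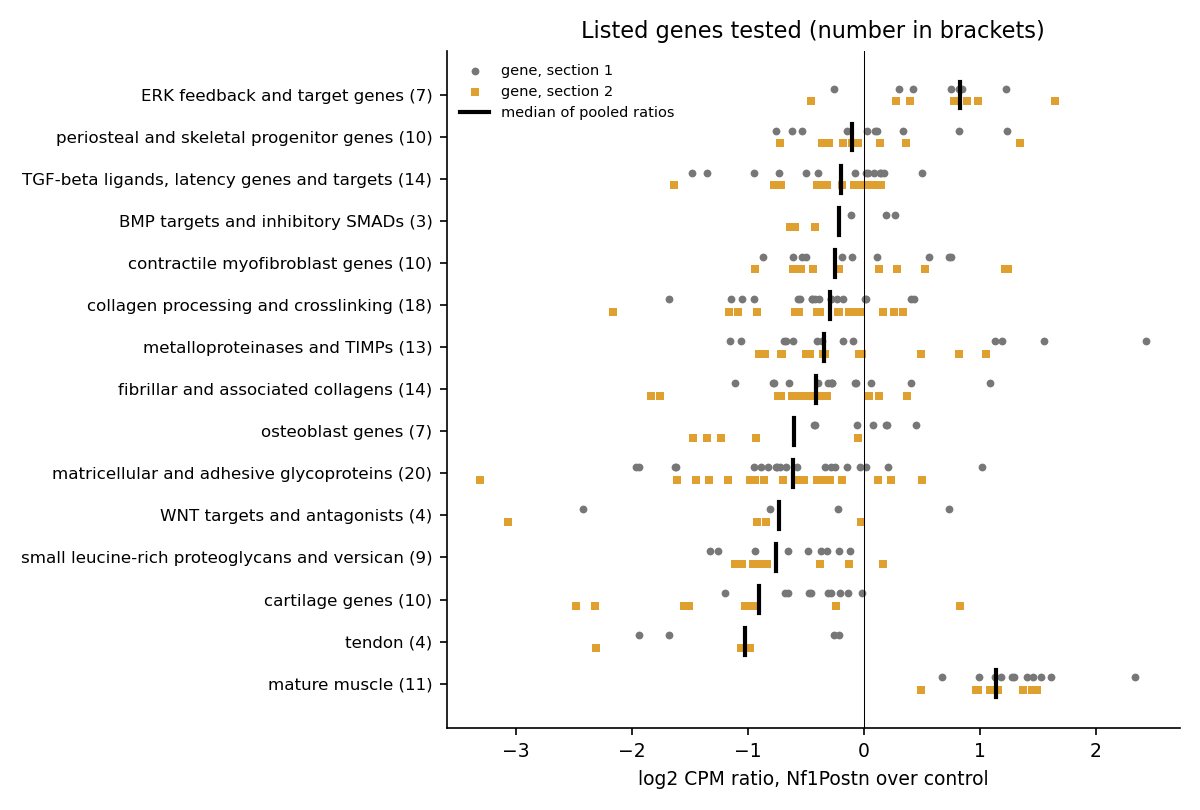
Log2 CPM ratio of Nf1Postn over control fibrous spots for each listed gene that was compared, in section 1 (grey circles) and section 2 (orange squares), with the median of the pooled ratios as a bar and the number of genes in brackets. The ERK list lies mostly right of 0 and the matrix, cartilage and tendon lists mostly left of it, and the osteoblast genes of the 2 sections lie apart.

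Cartilage genes below the Col2a1 limit were lower in Nf1Postn. Of 10 compared, 9 were lower in both sections and 1 was called, with a median of -0.90 (-0.38 in section 1 and -1.27 in section 2). The called gene was Sox9, the transcription factor that starts and maintains chondrocytes, at 131 and 174 CPM in the control and 56.9 and 59.2 CPM in Nf1Postn (-1.41, -1.90 to -0.95). Aggrecan (Acan) was at 248 and 446 CPM and 179 and 79.7 CPM. Since the control spots lay closer to cartilage and Col2a1 itself chose the spots, the share of cartilage at the spots' edges in these values was not tested. The tendon list went the same way, with all 4 genes lower in both sections and tenomodulin (Tnmd), a membrane protein of tendon cells, at 165 and 338 CPM in the control and 51.2 and 68.3 CPM in Nf1Postn (-2.11, -2.57 to -1.67).

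Osteoblast genes did not separate the genotypes in the same way in both sections. None of 7 was called, and the median was 0.07 in section 1 and -1.23 in section 2. The transcription factor Runx2, needed for osteoblasts to form, was at 129 and 123 CPM in the control and 148 and 118 CPM in Nf1Postn, with overlapping sections. Alkaline phosphatase (Alpl) stood at 145 and 139 CPM against 108 and 59.2 CPM. Bone morphogenetic protein (BMP) signaling could be followed through 3 of 12 target genes, the Id transcription regulators, and none was called. Id1 was at 105 and 177 CPM in the control and 96.7 and 114 CPM in Nf1Postn, and Id3 at 305 and 415 and 367 and 275 CPM, so that the control and Nf1Postn sections overlapped for both.

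Apart from muscle genes, the largest differences upward were in 3 genes that were close to their counting limit in the control spots. Cldn1 (chromosome 16, 26175392 to 26190592 in mm39), a tight junction protein of epithelia and of the perineurium, was counted at 12.9 and 13.9 CPM in the control sections, from 8 and 11 UMIs, and at 128 and 105 CPM in the Nf1Postn sections, from 45 and 46 UMIs. This was 8.54-fold higher (3.09, 2.37 to 3.89). Cadm4, a cell adhesion molecule of Schwann cells and some epithelia, was at 14.5 and 13.9 CPM against 159 and 100.2 CPM (3.16, 2.45 to 3.93). Aatk, a membrane kinase found in nervous tissue, was at 22.6 and 24.1 CPM against 239 and 153 CPM (3.03, 2.48 to 3.62). In all 3 genes the intervals of the 2 genotypes stayed apart in each section, but the genes were picked for their large differences, so this adds no support. Drawn down to 1000 UMIs, Cldn1 was seen in 1.33% of control spots (0.162% to 4.73%) and 12% of Nf1Postn spots (7.27% to 18.3%), against 2.07% of muscle-rich spots. For Cadm4 the shares were 2.67% and 13.3%, against 2.69%.

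Markers of Schwann cells were higher in Nf1Postn as well, but whether they vary with these genes over spots was not tested. Of 8 markers, 7 were higher in both Nf1Postn sections, although only Pmp22, which fibroblasts also express, had enough UMIs to be compared. Sox10, the transcription factor of Schwann cells, was at 6.45 and 24.1 CPM in the control and 91 and 116 CPM in Nf1Postn. The 8 markers summed to 319 and 345 CPM in the control sections and 668 and 694 CPM in the Nf1Postn sections. In the other eligible spots they summed to 378 CPM in the control and 686 CPM in Nf1Postn, so this difference was not particular to fibrous spots. Without Pmp22 the list summed to 103 and 136 CPM in the control sections and to 384 and 401 CPM in the Nf1Postn sections. A UMI of these 7 markers was missing from 59 of 150 control and 39 of 150 Nf1Postn spots. A median spot is expected to hold few of them at these levels, so a spot without such a UMI may still hold Schwann cells, and the part of Schwann cells in the higher genes was not tested. In the spots without one, compared after these values were seen, the log2 ratios were 3.05 for Cldn1 (1.64 to 4.68), 2.77 for Aatk, 2.55 for Cadm4 from 5 and 10 UMIs, 1.55 for Micall2, 1.41 for Nes and 0.96 for Gli1. Those of the ERK target genes Dusp6 and Egr1 were 0.68 (-0.04 to 1.37) and 0.50 (-0.17 to 1.14) there, against 1.02 and 1.03 over all fibrous spots, and their intervals reached 0.

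Gatm, which makes the creatine precursor guanidinoacetate, was at 17.7 and 27.9 CPM in the control and 128 and 129.8 CPM in Nf1Postn (2.46, 1.88 to 3.07). Dlk1, a Delta-like membrane protein of immature mesenchymal cells that holds back fat cell formation, was at 56.5 and 67.1 CPM against 233 and 244 CPM (1.94, 1.56 to 2.32), and Itih5, a secreted protein that binds hyaluronan, at 71 and 97.5 CPM against 273 and 285 CPM (1.70, 1.38 to 2.03). All 3 genes were higher in both Nf1Postn sections than in either control section. In spots without a Schwann marker UMI the log2 ratios were 2.90, 2.00 and 2.25. Nes, an intermediate filament of progenitor, vascular and regenerating muscle cells, was at 35.5 and 48.1 and 111 and 159 CPM, and Micall2, a protein of junction assembly, at 27.4 and 22.8 and 96.7 and 84.2 CPM.

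Only 1 of 10 progenitor genes was called. Gli1, a target and effector of hedgehog signaling that marks skeletal stem cells, was at 48.4 and 55.7 CPM in the control and 114 and 141 CPM in Nf1Postn (1.30, 0.85 to 1.75). The median of the list was -0.10, and the mesenchymal factor Prrx1 went from 641 and 549.7 to 415 and 428 CPM. In 11 genes of resting and perivascular fibroblasts, with a median of -0.20 and no call, Cxcl12 was at 691 and 788 CPM in the control and 310 and 480.4 CPM in Nf1Postn, whereas Cxcl14 was at 179 and 162 and 438 and 303 CPM.

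Nf1 itself did not separate the spots, at 92 and 63.3 CPM in the control and 102 and 70.6 CPM in Nf1Postn (0.16, -0.30 to 0.61). Its log2 ratio was -0.38 (-1.10 to 0.32) in pairs of fibrous spots matched on muscle and -0.63 in the other eligible spots. Where the Nf1 probes lie relative to the floxed exons is not given in the sources used here, and spots also hold cells without Cre, so that this count does not check the deletion. The ERK list, made of feedback inhibitors and early targets of the Ras and ERK pathway, had the highest median of the pathway, matrix and skeletal lists. Of its 7 genes with enough UMIs, none was called, 6 were higher in both sections and the median was 0.82 (0.75 in section 1 and 0.77 in section 2). The ERK phosphatase Dusp6 was at 93.6 and 77.3 CPM in the control and 219 and 132 CPM in Nf1Postn (1.02, 0.65 to 1.38), and the pathway inhibitor Spry1 at 71 and 62.1 and 125 and 123 CPM (0.91, 0.48 to 1.33). The early-response factor Egr1 was at 148 and 74.7 and 199 and 235 CPM, and cyclin D1 (Ccnd1), which drives entry into the cell cycle, at 105 and 86.1 and 176 and 159 CPM. For these 4 genes both Nf1Postn sections exceeded both control sections, whereas Ier3 ran the other way, at 61.3 and 65.9 CPM against 51.2 and 47.8 CPM. The other 11 listed genes in the tables, such as Etv4 and Spry4, had too few UMIs.

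**Figure D5:**
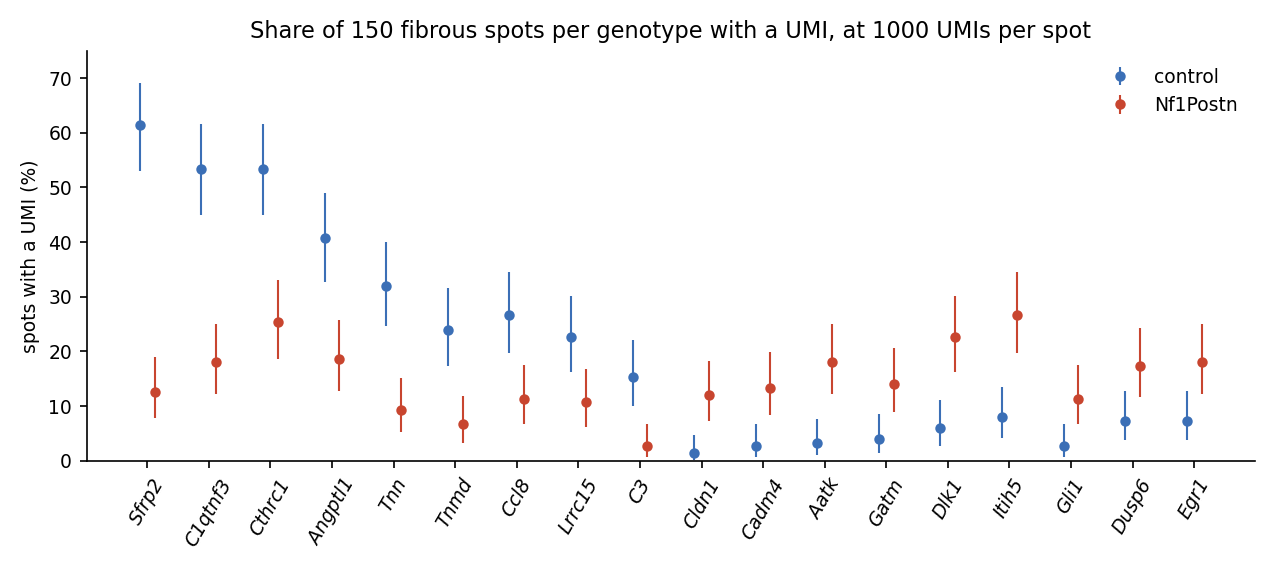
Percent of the 150 control (blue) and 150 Nf1Postn (red) fibrous spots with at least 1 UMI of each gene after every spot was drawn down to 1000 UMIs, with exact binomial 95% intervals. The intervals of the genotypes stay apart for all 18 genes shown except Lrrc15, Dusp6 and Egr1. All but Dusp6 and Egr1 were shown because they were called, so that intervals apart are no further support. The intervals treat spots of 1 mouse per genotype as separate draws.

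Muscle ran with many of the higher genes, so 64 pairs of a control and an Nf1Postn fibrous spot of the same section were matched on their muscle and erythroid level, with medians of 17453 and 17724 CPM. This comparison was added after the values were seen. Of the genes called before that could still be compared, 1 of 18 higher genes (Plekha4) and 6 of 9 lower genes were called again. The genes given below were picked for their differences in a set that holds these spots, so their ratios in the pairs add no support. Whether the pairs match in other tissues was not tested. In these pairs the muscle genes no longer differed in 1 direction, with Ckm at a log2 ratio of 0.25 and Myh1 at -0.65. The lower levels remained, with Sfrp2 at -2.35 (-2.69 to -2.02), Tnn at -2.43 (-2.96 to -1.93), Angptl1 at -2.56 (-2.96 to -2.18) and Cthrc1 at -1.51 (-1.79 to -1.23). So did the higher levels of Cldn1 at 3.35 (2.12 to 4.86), Aatk at 3.14 (2.26 to 4.15), Gatm at 2.40 (1.51 to 3.40) and Dlk1 at 1.71 (1.13 to 2.32). Cadm4 rested on 3 control and 50 Nf1Postn UMIs there (4.41, 2.78 to 6.73). Dusp6 was at 1.41 (0.81 to 2.03) and Egr1 at 1.40 (0.87 to 1.94), while Gli1, at 1.07 over both, was -0.07 in section 1 and 1.64 in section 2.

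The same genes were then read in the eligible spots that were not fibrous, 810 in the control and 1641 in Nf1Postn, which come from the same mice and sections. There 9830 genes could be compared, of which 233 (2.37%) were higher and 169 (1.72%) lower. Of the 22 genes lower in fibrous spots, 11 were lower in these spots as well (50% of the former list and 6.51% of the latter). At any size 20 were lower in both sections, but the share of all genes lower there at any size was not counted. The summed fibrillar and associated collagens were lower there too, at 87888 CPM in the control and 45581 CPM in Nf1Postn. The count of 20 thus shows nothing particular to these genes. Sfrp2 was at -3.10, C3 at -2.60 and Ccl8 at -2.38 on the log2 scale, so their lower levels were seen beyond the fibrous spots. Of the 47 higher genes, 30 were higher there as well (63.8% and 12.9%), but only 2 of the 17 that were not above the fibrous level in muscle-rich spots. The mature muscle list summed to 44334 CPM in these other control spots and to 168776 CPM in those of Nf1Postn. Muscle content thus entered both the split into 30 and 17 genes and this comparison, which cannot show that the 17 are particular to fibrous spots. Cadm4 was at 1.97 and Aatk at 1.32, whereas Cldn1 was at 1.17 in section 1 and -0.82 in section 2. Of the ERK list, Dusp6, Egr1 and Spry1 were at 0.02, -0.17 and 0.14, and Ccnd1, Spred1, Spred3 and Ier3 at -0.68, -0.60, -0.65 and -0.80. Gli1 was at -0.90, below 0 in both sections. None of these differences between fibrous and other spots was tested. In the 150 spots of each genotype that ranked just below the fibrous ones, Sfrp2 was at -2.63, Tnn at -0.82, Cthrc1 at -0.57, Lrrc15 at 0.04, Cldn1 at 1.29 and Cadm4 at 2.66.

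Within the control the lower genes did not all mark the same spots. Spearman's rho of CPM over the 150 control spots, given as a description since the spots share libraries and depth, was 0.54 for Cthrc1 with Lrrc15, 0.51 for Cthrc1 with C1qtnf3 and 0.49 for Tnn with C1qtnf3. Angptl1 ran with Tnmd (0.46). Sfrp2 ran with none of these, at rho between -0.19 and 0.15, although its difference between genotypes was the largest.

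The list medians of other callus cells had opposite signs in the 2 sections. No gene was called among 4 endothelial, 5 pericyte and smooth muscle, and 3 osteoclast genes. Their medians were 0.19, 0.42 and 0.76 in section 1 and -0.30, -0.37 and -0.50 in section 2. The osteoclast phosphatase Acp5 was at 386 and 442 CPM in the control and 651 and 228 CPM in Nf1Postn, and the protease Mmp9 at 245 and 209 and 537 and 148 CPM, so that Nf1Postn was above the control in section 1 and below it in section 2. Of the 13 metalloproteinases and their inhibitors that were compared none was called, and 8 were lower and 2 higher in both sections. The 2 higher ones were the stromelysin Mmp3, at 24.2 and 93.7 CPM in the control and 131 and 132 CPM in Nf1Postn, and the inhibitor Timp3, at 295 and 300.2 and 867 and 528 CPM. Granulocyte, mast cell, lymphocyte and synovial genes were too rare to be compared, and of the cell cycle list only Mcm2 and Mcm3 could be, at -0.09 and -0.55.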

How the data were processed

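Per the labels and the methods of the study, the authors hybridized probe pairs to the sections, aligned reads to mm39 with Space Ranger 1.3.0 and exported the tables from Partek Flow. The deposited values are UMIs per gene and spot without normalization, handled like estimated counts because 9 of 19430 named entries are not whole, and rounded only when spots were drawn down. An entry without a gene name (5.24e-05% of UMIs) was left out. The deposited spot annotation gave the genotype, and 5 spots without one were not used. The deposited positions gave the distances, at 100 μm between spots. The sections share 2711 position barcodes, which name places on the array and not cells.

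Pooled CPM ratios have exact conditional binomial intervals, levels exact Poisson intervals and shares exact Clopper-Pearson intervals, all at 95%. Probe counts taken as those of 1 mouse per genotype allow no test. A group at 0 was given 3 counts. The genes that chose the spots were left out of lists and counts. Genes named by a fixed rule are list genes at least 2-fold apart the same way in both sections (up to 4 per list and direction), Nf1, the 4 choosing genes and the 12 largest differences each way. All other named genes were chosen after their values were seen. The members and lists were chosen with earlier results of these data known. Python 3.11.15, numpy 2.4.6, pandas 2.3.3, scipy 1.17.1 and, for trimmed mean of M values (TMM) factors, edgeR 4.0.16 in R 4.3.3 were used. The comparison was tested on simulated data.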

Additional observations from a re-analysis of the deposited data

Results flagged for a closer look

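Gli1 was flagged because its difference between genotypes ran one way in the fibrous spots and the other way in the remaining eligible spots, in both sections each. It was 1.30 on the log2 scale in the former, with 1.23 in section 1 and 1.34 in section 2. In the latter it was -0.90, with -0.64 and -0.99, from 83.1 CPM in the control and 44.6 CPM in Nf1Postn. In the 150 spots of each genotype ranked next, the log2 ratio of Gli1 was 0.24. Ccnd1 and Nf1, neither of them called, also ran in opposite ways in both sections each. They were at 0.82 and 0.16 in the fibrous spots and -0.68 and -0.63 in the remaining ones, so this was not particular to Gli1. The remaining Nf1Postn spots held more muscle, and Gli1 was at 25.8 CPM in muscle-rich spots. The difference between the 2 kinds of spot was not tested.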

How the results depend on the processing

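Without section 1 or section 2, 121 to 143 genes were higher and 100 to 127 lower, since a single section then had to pass, and the ERK median was 0.40 to 0.75. The replicate number only marks the section, in which both genotypes lie. The mean of both section ratios (replicate block) replaces only the pooled ratio, so its 47 and 22 calls are the same by construction and are no check. Its ERK median was 0.82. TMM factors gave 42 and 30. The mean of log2(CPM + 1) over spots, in which spots without a UMI of a gene weigh more at the lower depth of Nf1Postn, gave 33 higher and 1001 lower genes and medians of -0.68 for collagens, -1.51 for matricellular genes, -2.24 for leucine-rich proteoglycans, -2.07 for cartilage, -2.04 for osteoblast and 0.47 for ERK genes. Drawn down to 1000 UMIs, 316 genes could be compared, with 11 higher and 11 lower. With any UMI in each section 790 were higher and 153 lower, and the ERK median was 0.41. A genotype at 0 was given 3 counts there. Ccl3, with 1 and 1 UMIs in the control sections and 0 and 0 in Nf1Postn, thus counted as higher. The 790 and 153 are therefore not on equal terms. The 100 highest spots per genotype gave a matricellular median of -0.77, and the 250 highest 79 higher genes and an ERK median of 0.56. Without spots of 10000 CPM or more of muscle and erythroid genes, 9 Nf1Postn spots were left, 8 in section 1 and 1 in section 2. Every call in this set thus rested on 1 Nf1Postn spot in section 2. There 5 genes were higher, none of them among the 47, and 2 of 16 lower ones were shared (Angptl1 and Sfrp2). The medians were then 0.043 for collagens and -0.17 for matricellular genes, and signs turned for mature muscle (-0.17), Ckm (-0.17), Lrrc15 (0.21), Tnnc2 (-0.31) and Tnnt3 (-0.25). The other alternatives were added after the data had been seen. Without spots of 30000 CPM or more, 27 genes were higher (14 shared) and 28 lower (15 shared). In pairs matched on muscle, 1326 genes could be compared, with 2 higher (Plekha4 shared) and 12 lower (Angptl1, C1qtnf3, Ccl8, Cthrc1, Sfrp2 and Tnn shared), a matricellular median of -0.37 and an ERK median of 1.16, and signs turned for mature muscle (-0.098), Myh1 (-0.65) and Tnnc2 (-0.14). Nf1, which was not called, turned as well, at -0.38 (-1.10 to 0.32). Fewer genes pass the count minimum in these smaller sets. For the values not tied here to a set's construction, the cause was not tested. Named genes that were called kept their sign in all other alternatives, with 41 values under 2-fold in a section.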
